A study of Mus musculus with 23 samples.

Results

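Genes of the venous endothelium and of leukocyte adhesion were followed through RNA-Seq of whole lung: Vwf, Slc6a2, Cpe and Ackr1, taken here as genes of the endothelium of veins and venules, and Vcam1, Icam1, Icam2, Selp and Sele, which white blood cells bind when they leave the blood. They were picked by gene symbol, and 9 of the 35322 rows of the table were members. The lungs came from 23 Balb/c offspring in 4 groups, collected at 13 weeks of age according to the methods of the study, which describe the offspring as female. Sham offspring (n = 7) and PM offspring (n = 7) were born to dams given saline or fine particulate matter (PM2.5) through the nose before mating, in pregnancy and until weaning, and were not challenged with allergen. Sham-OVA (n = 5) and PM-OVA offspring (n = 4) were sensitised to ovalbumin (OVA) with alum and then challenged with an OVA aerosol to induce allergic airway disease (AAD). The methods describe sensitisation for each offspring and only the nebulised saline for controls, so whether the Sham and PM offspring were sensitised is not clear. The labels name the control challenge as PBS and the methods as nebulised saline, and the tissue label reads Lung (RML), where the methods name the right lower lobe. All offspring had a lung function test with methacholine before their lungs were taken. Offspring inhaled no PM2.5 themselves, and the labels do not tie a library to a dam or litter, so the p-values measure the spread between libraries whether or not they shared a litter.

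In many tissues leukocytes leave the blood mainly through veins and venules, and their route out of the blood in these lungs was not measured. Selectins on the vessel wall slow the cell, integrins of the leukocyte then grip ICAM and VCAM proteins, and the cell passes between endothelial cells. Endothelial cells store von Willebrand factor (Vwf) and P-selectin (Selp) in the same granules, whereas E-selectin (Sele), Vcam1 and much of Icam1 are made on demand after cytokines activate NF-kB. In the lung, Icam1 is also made by alveolar type 1 cells, Vcam1 by stromal cells and some macrophages, Selp by platelets and their precursors and Ackr1 by erythroid cells, so none of these genes is a measure of endothelium alone.

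The sequence before the start of transcription was shown for the cytokine-responsive adhesion genes, because their response to OVA is what the comparisons below turn on. RefSeq promoters (GRCm38.p6) were at hand for 4 of the 9 members. The 250 bases before the start of Icam1 (chr9:21015690-21015939, plus strand), Sele (chr1:164047984-164048233, plus strand) and Selp (chr1:164115014-164115263, plus strand) are given 5′ to 3′, and that of Ackr1 is left out because it lies inside an exon of Cadm3. Capitals mark a kB-like motif, GGNNNTTCC on either strand.
Icam1: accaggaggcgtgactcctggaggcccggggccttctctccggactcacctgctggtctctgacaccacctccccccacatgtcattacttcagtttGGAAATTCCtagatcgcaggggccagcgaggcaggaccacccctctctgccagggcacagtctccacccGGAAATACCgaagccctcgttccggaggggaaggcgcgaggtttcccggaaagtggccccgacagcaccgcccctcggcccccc
Sele: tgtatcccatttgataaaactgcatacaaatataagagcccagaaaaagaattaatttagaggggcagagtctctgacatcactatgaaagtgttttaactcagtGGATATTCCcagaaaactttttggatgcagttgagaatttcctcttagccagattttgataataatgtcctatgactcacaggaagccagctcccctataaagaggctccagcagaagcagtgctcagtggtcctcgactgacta
Selp: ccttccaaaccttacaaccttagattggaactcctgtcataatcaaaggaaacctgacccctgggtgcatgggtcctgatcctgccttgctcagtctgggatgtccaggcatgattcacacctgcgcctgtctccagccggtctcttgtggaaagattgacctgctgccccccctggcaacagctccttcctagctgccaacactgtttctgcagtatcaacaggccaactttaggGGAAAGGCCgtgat
Icam1 held 2 kB-like matches, at 153 and 84 bases before the start, Sele held 1 at 145 bases and Selp held 1 at 14 bases. The motif was found on either strand in 15.7% of 32851 promoter windows of the same 250 bases, so a match is common. TATAAA, present in 12.4% of the windows, was found among these 3 genes in Sele alone, at 49 bases, and the AP-1 motif TGANTCA, present in 6.75%, was found in Sele at 73 bases and in Selp at 139 bases. The kB motif of 10 letters and the STAT6 motif were in 15.2% and 5.85% of the windows and in none of the 3. The motifs were chosen after the sequences were seen, overlaps between motifs were not removed, and a match describes letters, not a bound site.

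Between 13089691 and 17393579 reads fell on genes in each saline library, and between 2298645 and 12355561 in each OVA library. The deposited values, which were whole multiples of the value of a single read in every library, were reads scaled to library size and are given as RPM. Reads on genes made up 83.0% to 92.4% of that library size in saline libraries and 71.4% to 85.7% in OVA libraries. The part of this difference in the fold changes after OVA was not tested. Single reads were worth 0.311 RPM in Sham-OVA replicate 3, 0.182 in PM-OVA replicate 4 and 0.133 in PM-OVA replicate 3, against at most 0.0688 RPM in the saline libraries. Sham-OVA replicate 3 was the lowest library of its group for 64.4% of the 16795 genes tested. PM replicate 5 had 3777 summed RPM of 14 pan-endothelial markers, against 8192 to 9361 in the other PM libraries. Sham replicate 1 had 54.0 RPM of the Y-linked gene Eif2s3y and 0.289 RPM of Xist, whereas the other 22 libraries had no read of Eif2s3y and at least 174 RPM of Xist, so this library went against the description of the offspring as female. Lung was recognised in the endothelial marker Pecam1 (459 to 1393 RPM) and in the alveolar marker Ager (1242 to 2671 RPM). Calls after OVA that changed without Sham replicate 1, PM replicate 5 or Sham-OVA replicate 3 are given beside their values.

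Per kb of exon (GENCODE, GRCm38), Icam1 and Icam2 had the highest level of the 9 genes in the saline lung. In Sham offspring, Icam1 had 116 RPM per kb ± 17.4 (SD, n = 7) and Icam2 105 ± 25.5, and their ranges overlapped. Cpe (18.2 ± 3.41), Vwf (13.6 ± 4.14) and Vcam1 (12.1 ± 1.79) followed, and neighbours among these 3 overlapped too. The length used was that of all annotated exons together, 2609 bases for Cpe, 16064 for Vwf and 8870 for Vcam1. Their longest transcripts had 2117, 8834 and 4088 bases, so the order of these 3 genes depends on the length taken. Slc6a2 lay below them at 4.84 RPM per kb ± 2.82, without overlap with Vcam1 or with Selp. Selp was low (0.632 ± 0.308), from 23 to 81 reads a library, and Ackr1 (0.212 ± 0.128) and Sele (0.0623 ± 0.0621) were close to the limit of the libraries. After OVA the first places changed over. Icam2 was above Icam1 in each of the 5 Sham-OVA libraries (82.2 against 49.1 RPM per kb on average, n = 5, with no overlap) and in 3 of the 4 PM-OVA libraries (85.0 ± 21.4 against 57.5 ± 21.6, n = 4).

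The response to OVA was tested in each cohort on log2(RPM + 0.5) with limma, and a gene was called at a Benjamini-Hochberg adjusted p under 0.05. Of the 9 members 8 passed the filter on low values and Sele did not. In Sham offspring Ackr1 was called higher and Icam1 and Slc6a2 lower. Over all genes tested, 20.6% were called higher and 47.5% lower, with a median log2 fold change of -0.48, and the members' median was 0.09. In PM offspring Icam1 alone was called, as lower, against 20.1% of all genes called higher and 45.2% lower. The median log2 fold change was -0.29 over the members and -0.43 over all genes. At the stricter threshold that the study used for DEGs (an adjusted p below 0.000001 with a fold change beyond 1 on the log2 scale) no member was called in either cohort, against 1.98% of genes higher and 2.53% lower in Sham and 0.262% and 0.0238% in PM offspring. Since the median of all genes was negative in both cohorts, each log2 fold change can also be read against it. On that scale 6 of the 8 members were above the median of all genes in each cohort, a line with as many genes above as below.

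**Figure D1:**
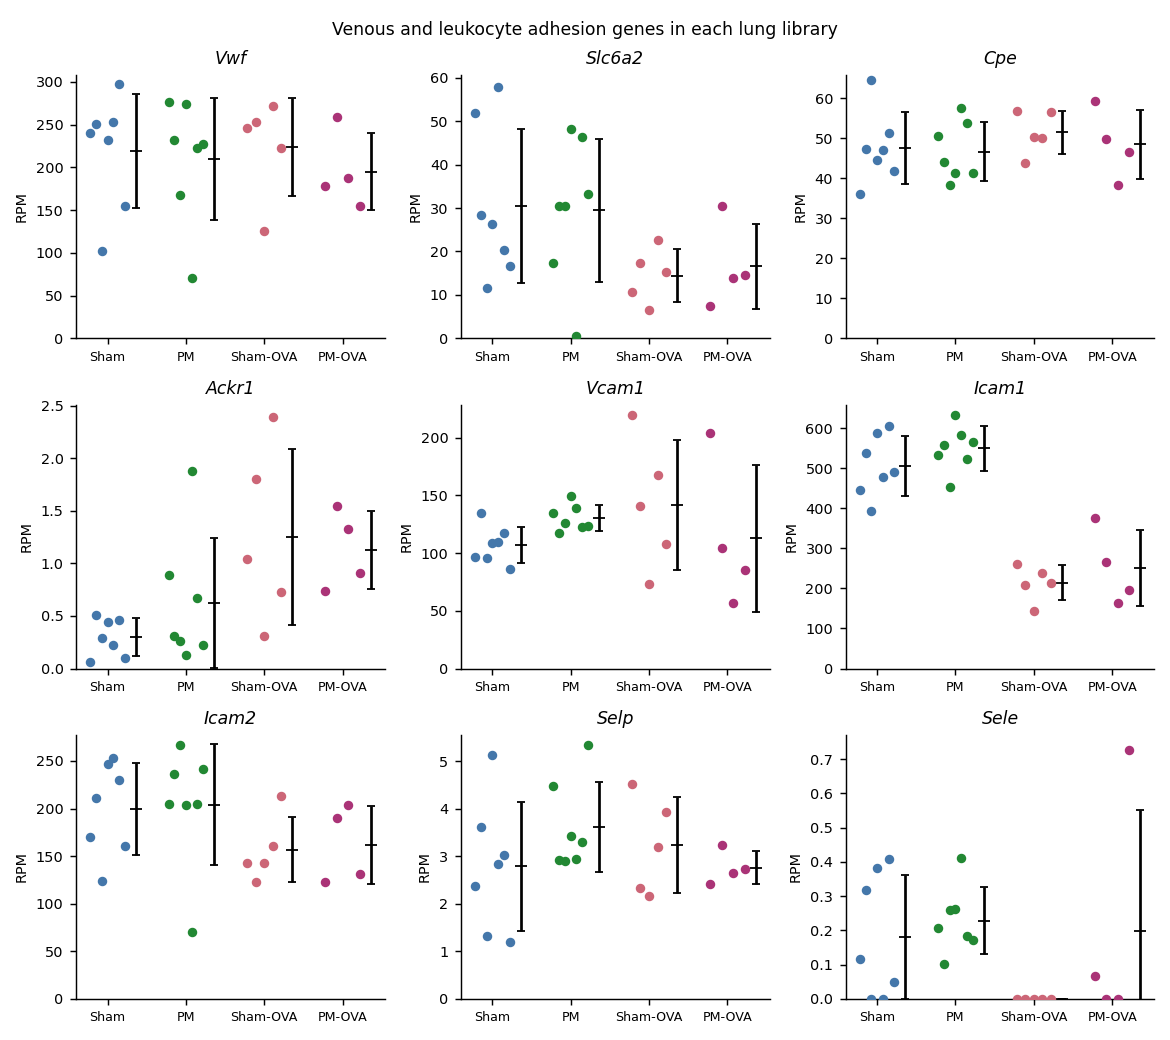
RPM of each of the 9 genes (y axes, linear and starting at 0) in every library of the 4 groups (x axes), with the mean and SD of each group beside its points (bars cut at 0). Icam1 was lower in every OVA library than in every saline library of the same cohort, whereas the groups overlapped for the other 8 genes.

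Icam1 (chr9:21015985-21028817, plus strand) encodes the endothelial and epithelial ligand of the leukocyte integrins LFA-1 and Mac-1. In Sham offspring it ranged from 394 to 605 RPM with a median of 490 RPM, and in Sham-OVA offspring it had 261, 209, 145, 240 and 215 RPM. In PM offspring it ranged from 452 to 634 RPM (median 557), and in PM-OVA offspring it had 377, 265, 163 and 197 RPM. Every OVA library lay below every saline library of its cohort, as was the case for 35% of all genes tested in Sham and 28.6% in PM offspring. Icam1 fell by 1.25 on the log2 scale (SE 0.16, limma adjusted p = 1.30e-05) in Sham and by 1.20 (SE 0.20, limma adjusted p = 3.44e-04) in PM offspring. The mean in the saline group was 2.36 and 2.19 times that of the OVA group, and Icam1 lay 0.77 below the median log2 fold change of all genes in each cohort. The antisense gene Gm47079 overlaps Icam1, and whether the counting used the strand is not given in the sources used here. The next genes on the chromosome, Icam4 and Icam5, which were named after their values were seen, were low (1.27 ± 0.475 and 0.407 ± 0.213 RPM in Sham, SD, n = 7) and their log2 fold changes after OVA were 0.66 and 0.74 in Sham offspring (limma adjusted p = 0.0325 and 0.00456), though Icam4 turned to -0.19 after adjustment for transcript length and GC content.

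Icam2 (chr11:106377656-106388075, minus strand), a ligand of LFA-1 that resting endothelium makes without a stimulus, had 124 to 253 RPM in Sham (median 211) and 143, 123, 143, 161 and 213 RPM in Sham-OVA offspring. The ranges overlapped and the log2 fold change was -0.33 (SE 0.19, 95% interval -0.75 to 0.08, limma adjusted p = 0.141). Of the 12 fits that left out a library, only that without Sham replicate 3 called it (-0.44, limma adjusted p = 0.0367). Array weights called it as well (-0.43, limma adjusted p = 0.0143). In PM offspring Icam2 ranged from 70.7 to 267 RPM (median 205), the lowest value being that of replicate 5, and PM-OVA offspring had 122, 190, 203 and 131 RPM. The log2 fold change was -0.27 (SE 0.31, limma adjusted p = 0.459). Without PM replicate 5 it was -0.51 (limma adjusted p = 0.0192), a call that rests on leaving that library out.

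Vcam1 (chr3:116109949-116129688, minus strand), the ligand of the integrin alpha4 beta1 that eosinophils and lymphocytes carry, did not pass the test in either cohort. It ranged from 86.4 to 134 RPM in Sham (median 109) and had 220, 141, 73.0, 168 and 108 RPM in Sham-OVA offspring. In PM offspring it ranged from 118 to 149 RPM (median 126), and PM-OVA offspring had 204, 104, 56.8 and 85.5 RPM. OVA libraries thus lay on both sides of the saline range. The 3 lowest values were those of the 3 shallowest OVA libraries (replicate 3 of Sham-OVA, replicates 3 and 4 of PM-OVA), and the part of depth in this spread was not tested. The log2 fold change was 0.32 (SE 0.22, limma adjusted p = 0.213) in Sham and -0.37 (SE 0.26, limma adjusted p = 0.222) in PM offspring. Single libraries moved it. Without Sham-OVA replicate 3 it was 0.54 (limma adjusted p = 0.00709) in Sham offspring, and without PM-OVA replicate 1 it was -0.70 (limma adjusted p = 0.0019) in PM offspring. Without Sham-OVA replicate 1 it was 0.14 (limma adjusted p = 0.563) and without PM-OVA replicate 3 it was -0.09 (limma adjusted p = 0.742). The antisense gene Gm43109 overlaps Vcam1.

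Selp (chr1:164115264-164150026, plus strand), the granule-stored selectin, was low in every group. It had 1.20 to 5.14 RPM in Sham (median 2.84) and 4.52, 2.33, 2.17, 3.19 and 3.94 RPM in Sham-OVA offspring, from 7 to 65 reads. PM offspring had 2.91 to 5.35 RPM (median 3.30) and PM-OVA offspring 2.42, 3.25, 2.66 and 2.72 RPM, from 15 to 42 reads. The groups overlapped, with a log2 fold change of 0.25 (SE 0.30, 95% interval -0.39 to 0.89, limma adjusted p = 0.476) in Sham and -0.31 (SE 0.20, 95% interval -0.75 to 0.13, limma adjusted p = 0.189) in PM offspring. Gm16587 and Gm16548 lie antisense to Selp.

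Sele (chr1:164048234-164057677, plus strand), the selectin that endothelium makes only after activation, was at the limit of detection. Sham libraries had 0 to 0.407 RPM (median 0.115), from 21 reads in all 7 libraries together, and PM libraries 0.102 to 0.411 RPM (median 0.206), from 27 reads. No read fell on Sele in the 5 Sham-OVA libraries, and PM-OVA libraries had 0.0672, 0, 0 and 0.726 RPM from 5 reads. Pooled over its libraries, Sele had 0.173 RPM in Sham (exact Poisson 95% interval 0.107 to 0.265) and 0 RPM in Sham-OVA offspring (0 to 0.0646). These intervals did not overlap, but they cover counting error only and not the spread between libraries. Over libraries the difference did not pass a two-sided exact permutation test (p = 0.053, 792 splits), with 2 of the 7 Sham libraries also at 0. In PM offspring the difference was -0.0297 RPM (exact permutation p = 0.933).

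Vwf (chr6:125546774-125686679, plus strand), whose product captures platelets at an injured wall, changed little with OVA. It ranged from 102 to 297 RPM in Sham (median 240) and had 246, 253, 126, 271 and 223 RPM in Sham-OVA offspring. In PM offspring it ranged from 70.2 to 277 RPM (median 228), and PM-OVA offspring had 178, 259, 187 and 155 RPM. All Sham-OVA libraries lay inside the Sham range. The PM-OVA libraries lay inside the PM range only because of PM replicate 5, since the other PM libraries had 167 to 277 RPM, above PM-OVA replicate 4. The log2 fold change was 0.06 (SE 0.26, 95% interval -0.50 to 0.61, limma adjusted p = 0.858) in Sham and -0.02 (SE 0.32, 95% interval -0.72 to 0.68, limma adjusted p = 0.954) in PM offspring, 0.54 and 0.41 above the median of all genes. Without PM replicate 5 the value in PM offspring was -0.27 (SE 0.18, limma adjusted p = 0.204).

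Slc6a2 (chr8:92960079-93001667, plus strand) encodes the noradrenaline transporter, which lung veins share with sympathetic nerves. It ranged from 11.6 to 57.9 RPM in Sham (median 26.3) and had 10.6, 17.4, 6.52, 22.5 and 15.2 RPM in Sham-OVA offspring, 2 of them below every Sham library. It fell by 0.96 on the log2 scale (SE 0.39, limma adjusted p = 0.0379). The call was narrow: it was lost in 7 of the 12 fits that left out a library, which gave -1.15 to -0.72, among them those without Sham replicate 1 (-0.80, limma adjusted p = 0.0786) and without Sham-OVA replicate 3 (-0.72, limma adjusted p = 0.0717), and the value lay 0.48 below the median of all genes. In PM offspring Slc6a2 ranged from 0.646 to 48.1 RPM (median 30.5) and PM-OVA offspring had 7.39, 30.4, 13.9 and 14.5 RPM. The log2 fold change of -0.43 (SE 0.86, 95% interval -2.28 to 1.42, limma adjusted p = 0.671) turned on PM replicate 5, without which it was -1.12 (SE 0.36, limma adjusted p = 0.0178). The nerve markers were near 0: Th had no read in any of the 23 libraries and Dbh had at most 0.797 RPM.

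Cpe (chr8:64592542-64693054, minus strand), a carboxypeptidase that trims prohormones in neuroendocrine cells, had 36.1 to 64.5 RPM in Sham (median 47.1) and 56.9, 43.9, 50.3, 50.1 and 56.5 RPM in Sham-OVA offspring. PM offspring had 38.3 to 57.6 RPM (median 44.1) and PM-OVA offspring 59.3, 49.9, 38.4 and 46.5 RPM. It had the narrowest intervals of the genes taken as venous, with log2 fold changes of 0.13 (SE 0.15, 95% interval -0.19 to 0.44, limma adjusted p = 0.452) and 0.05 (SE 0.16, 95% interval -0.29 to 0.39, limma adjusted p = 0.781). The neuroendocrine marker Chga had 0.397 RPM ± 0.262 in Sham (SD, n = 7), far below Cpe.

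Ackr1 (chr1:173331886-173333750, minus strand), the atypical receptor with which venules take up and display chemokines, rose from a very low level. Sham libraries had 0.0577 to 0.507 RPM (median 0.289), from 1 to 8 reads each, and Sham-OVA libraries had 1.04, 1.81, 0.311, 2.39 and 0.731 RPM, from 1 to 30 reads. Of the 5 Sham-OVA libraries 4 lay above every Sham library, and the one that did not, replicate 3, held a single read of the gene. Ackr1 rose by 1.03 on the log2(RPM + 0.5) scale (SE 0.29, limma adjusted p = 0.00578), which understates the change of so low a gene. The ratio of the means was 4.21. In PM offspring it ranged from 0.132 to 1.88 RPM (median 0.307), the highest being PM replicate 5, and PM-OVA offspring had 0.739, 1.55, 1.33 and 0.908 RPM. The log2 fold change was 0.66 (SE 0.34, limma adjusted p = 0.102), and 0.86 (limma adjusted p = 0.0125) without PM replicate 5. The 5′ exons of Ackr1 lie inside an exon of Cadm3 on the same strand, so reads of the pair may have been mixed and the value is uncertain. Cadm3 itself had a log2 fold change of -0.33 (SE 0.25) in Sham and -0.86 (SE 0.30) in PM offspring.

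**Figure D2:**
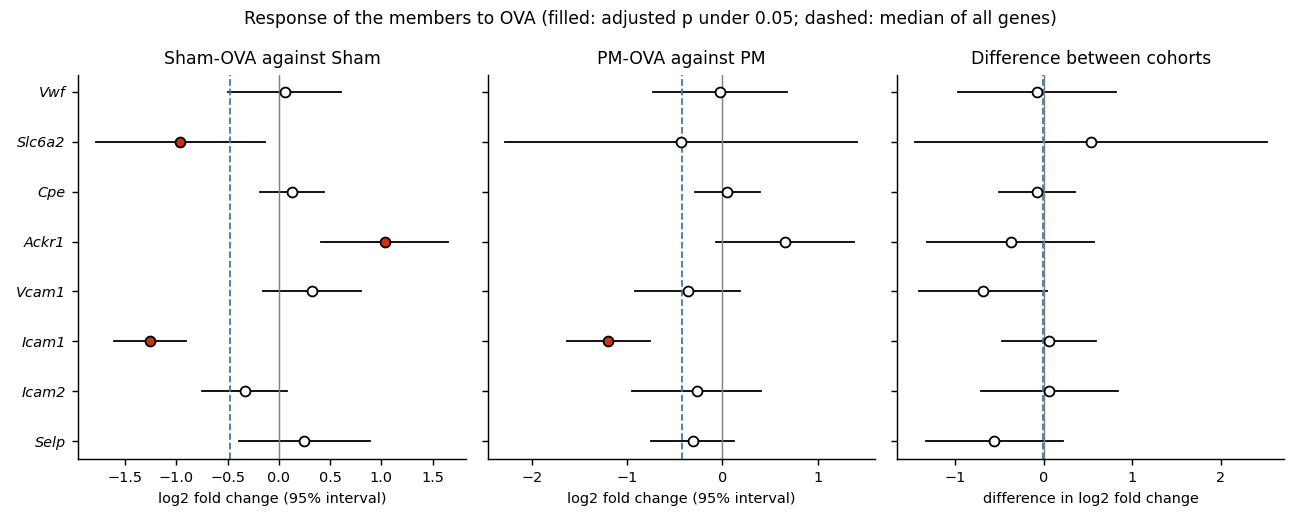
Log2 fold change after OVA in Sham (left) and PM offspring (middle) and the difference between the cohorts (right), as points with 95% intervals for the 8 members tested. Filled points passed an adjusted p of 0.05 and dashed lines give the median of all genes. Icam1 lay left of the dashed line in both cohorts, and every interval of the difference spanned 0.

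The sign of several members differed between ways of scaling the libraries. Median-of-ratios scaling moved the median log2 fold change of all genes from -0.48 to -0.17 in Sham and from -0.43 to -0.13 in PM offspring, and changed the split of all genes from 20.6% higher and 47.5% lower to 29.2% and 38.1% in Sham and from 20.1% and 45.2% to 28.9% and 35.7% in PM offspring. Icam1 stayed lower under it (-0.88 and -0.83). Cpe was then called higher in both cohorts (0.50, limma adjusted p = 0.0119, and 0.41, limma adjusted p = 0.0206), Vcam1 in Sham (0.69, limma adjusted p = 0.00127) and Ackr1 in PM offspring (0.88, limma adjusted p = 0.0337), whereas Slc6a2 was no longer called in Sham (-0.60, limma adjusted p = 0.15) and Icam2 turned to 0.04 and 0.09. Quantile normalisation moved the medians to -0.09 and -0.06 and the splits to 31.4% higher and 36% lower in Sham and 30.8% and 34% in PM offspring. Relative to 14 pan-endothelial markers, which sets endothelial RNA rather than total RNA as the yardstick, the split was 44.2% higher and 16% lower in Sham and 34% and 12.9% in PM offspring. On that yardstick Vwf was called higher in both cohorts (0.95, limma adjusted p = 2.07e-04, and 0.74, limma adjusted p = 0.0206), as were Cpe (1.02 and 0.81) and Ackr1 (1.92 and 1.42), and in Sham offspring alone Vcam1 (1.21), Selp (1.14) and Icam2 (0.56). Icam1 remained negative (-0.36, limma adjusted p = 0.0499, in Sham and -0.43, limma adjusted p = 0.24, in PM offspring). Adjusting each library for transcript length and GC content, an alternative chosen after seeing the data, left Icam1 lower (-1.64 and -1.62), ended the calls of Ackr1 (0.44, limma adjusted p = 0.205) and Slc6a2 (-0.48, limma adjusted p = 0.254), called Vcam1 higher in Sham offspring (0.82, limma adjusted p = 0.00163) and called Icam2 lower in both cohorts (-1.01, limma adjusted p = 5.62e-04, and -0.94, limma adjusted p = 0.019). Over all genes 18.4% were then higher and 46.3% lower in Sham and 17.5% and 44.3% in PM offspring. Count models on the recovered reads called 31.5% of genes higher and 38.1% lower (DESeq2) or 33.2% and 33.8% (edgeR) in Sham, and 31.7% and 32% or 30.5% and 30.3% in PM offspring. Both called Icam1 lower and Cpe higher in both cohorts, and Ackr1 and Vcam1 higher in Sham offspring. Under the 5 scalings plotted for the members, Icam1 was negative and Ackr1 positive in both cohorts each time.

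**Figure D3:**
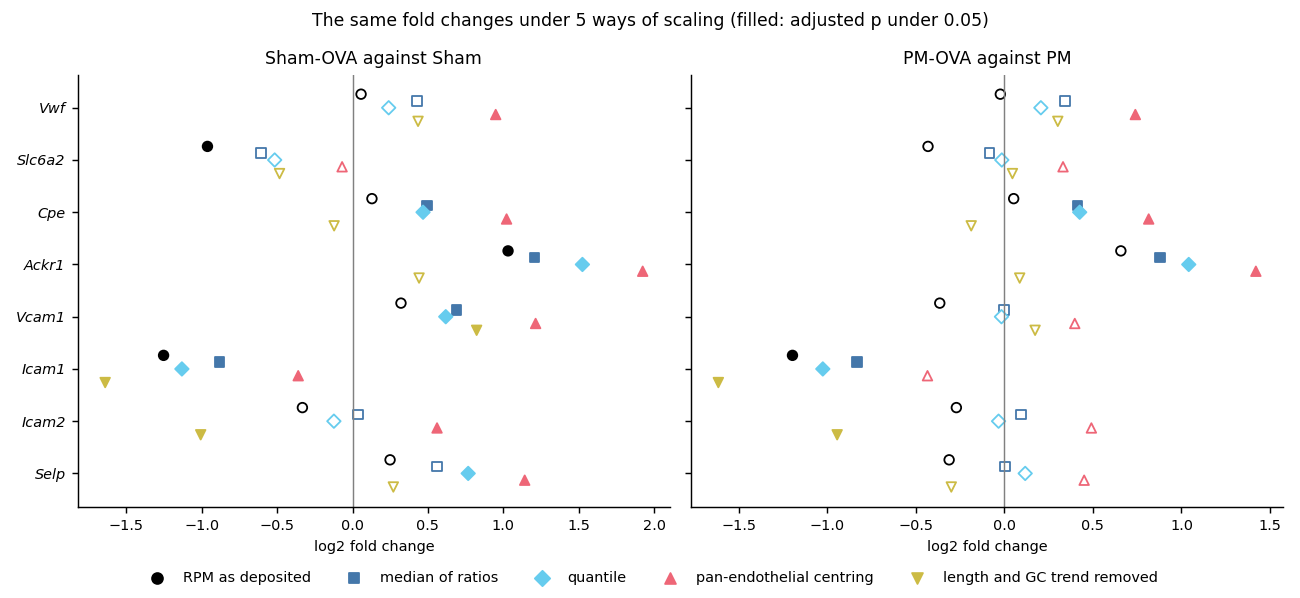
Log2 fold change after OVA (x axes) of the 8 members tested in Sham (left) and PM offspring (right) under 5 scalings, each with its own symbol and filled at an adjusted p under 0.05. Icam1 stayed left of 0 throughout, whereas Vwf, Cpe, Icam2, Selp, Vcam1 and Slc6a2 had values on both sides of 0 in at least 1 cohort.

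Maternal PM2.5 exposure was compared within saline and within OVA offspring, and no member was called in either comparison, nor was any of the 16795 genes (0% called by limma at an adjusted p of 0.05). At an unadjusted p under 0.05 limma listed 4.35% of all genes without OVA and 1.86% with OVA. Among members, Vcam1 had the smallest p without OVA, with 131 RPM ± 11.2 in PM against 107 ± 15.9 in Sham (SD, n = 7 each). The log2 difference was 0.29 (SE 0.09, limma adjusted p = 0.898), and 3 of the 7 PM libraries lay above every Sham library. The other members without OVA ranged from -0.40 for Slc6a2 (SE 0.68) to 0.40 for Selp (SE 0.24), and without PM replicate 5 Slc6a2 was 0.30 (SE 0.34), Vwf 0.15 and Icam2 0.22. With OVA the 8 differences ran from -0.39 for Vcam1 (SE 0.40) to 0.18 for Icam1 (SE 0.27), each with a limma adjusted p of 1. DESeq2 and edgeR on the recovered reads called no member in either comparison.

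The difference between the cohorts in the response to OVA was tested as an interaction and was called for no member, nor for any gene (0%, with 5.08% at an unadjusted p under 0.05). Vcam1 had the largest estimate among members, -0.69 (SE 0.35, 95% interval -1.41 to 0.04, limma adjusted p = 1), followed by Selp (-0.56, SE 0.37) and Slc6a2 (0.53, SE 0.96). The intervals of Icam1 (-0.48 to 0.59), Icam2 (-0.71 to 0.83) and Vwf (-0.97 to 0.81) still allowed sizeable differences either way. With array weights the interaction of Vcam1 was -1.30 (limma adjusted p = 0.00186), and without Sham replicate 1, PM replicate 5, Sham-OVA replicate 3 and PM-OVA replicate 1, libraries doubted after seeing the data, it was -1.20 (limma adjusted p = 0.0297). In these fits 3.88% of all genes were called higher and 23.6% lower (array weights, median -0.32) or 2.18% higher and 6.31% lower (without the doubted libraries, median -0.25), so Vcam1 was called among many genes.

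PM replicate 5 stood apart for some members and not for others. Slc6a2 had 0.646 RPM there, from 11 reads, against 17.3 to 48.1 RPM in the other 6 PM libraries, and of the 16795 genes it was the lowest relative to those libraries (4.85 lower on the log2 scale). Vwf had 70.2 RPM against 167 to 277, and Icam2 70.7 RPM against 204 to 267. Icam1 (583 RPM), Vcam1 (140 RPM) and Selp (2.93 RPM) lay inside the range of the other PM libraries, whereas Cpe (57.6 RPM against 38.3 to 53.8) and Ackr1 (1.88 RPM against 0.132 to 0.894) were above it. Of the 14 pan-endothelial markers 11 were below all other PM libraries, with a median of -1.36 on the log2 scale, and so were 10 of 10 capillary markers (median -1.19), against 28.8% of all genes tested. The other venous genes were split, with 5 of 12 below, 4 of 12 above and a median of -0.15. Above all other PM libraries also lay 2 of the 14 pan-endothelial markers and 0 of the 10 capillary markers, beside 4306 of the 16795 genes tested. Lists of other cells were low as well, with 6 of 6 B cell markers (median -0.999) and 5 of 8 markers of pulmonary vein cardiac muscle (median -0.93) below all other PM libraries. In the same library Saa3 (73.0 RPM) and Timp1 (37.9 RPM), acute-phase and tissue-remodelling genes named after their values were seen, exceeded the other PM libraries (at most 6.602 and 4.61 RPM). Sham replicate 3 was the lowest Sham library for Vwf (102 RPM), Slc6a2 (11.6 RPM), Icam2 (124 RPM) and Icam1 (394 RPM), and it had the lowest pan-endothelial sum of its group (5416 RPM against 6102 to 9856).

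**Figure D4:**
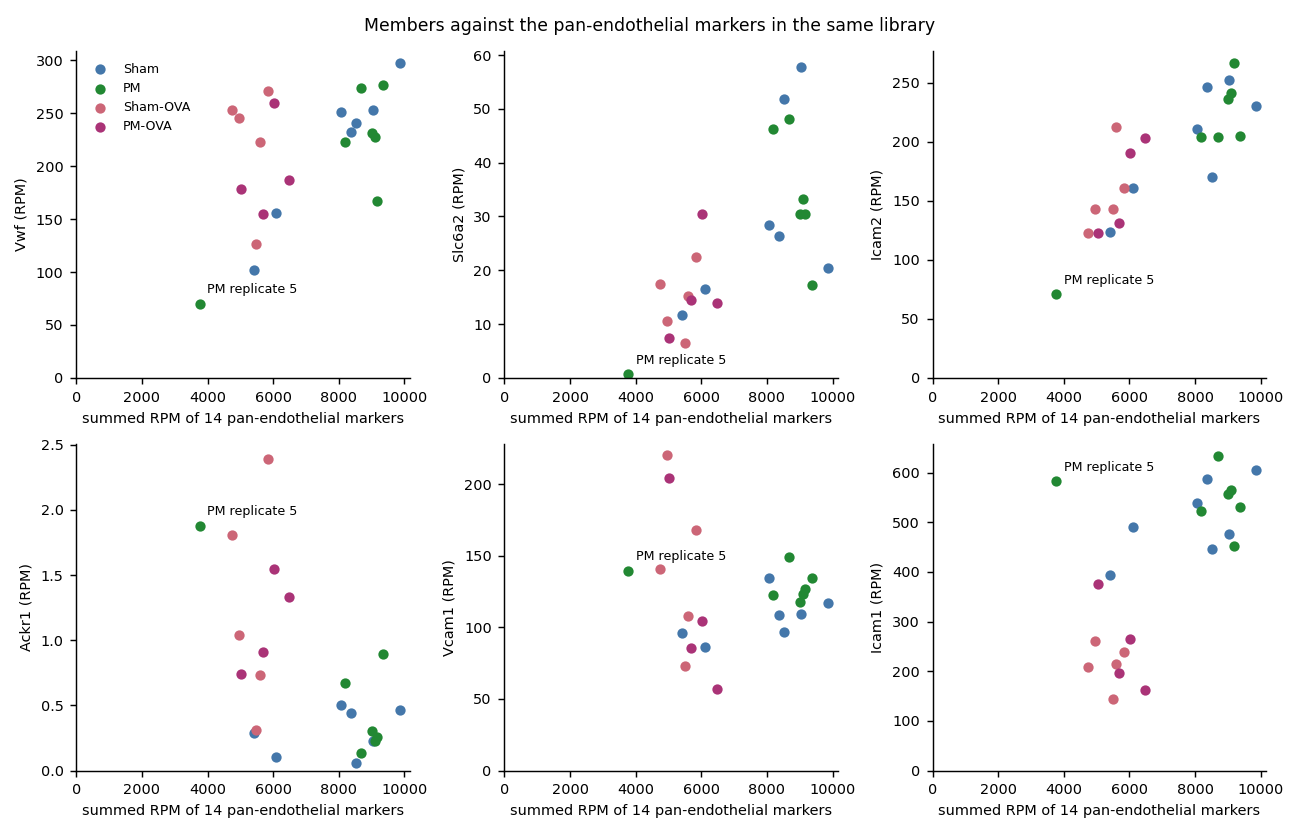
RPM of 6 members (y axes) against the summed RPM of 14 pan-endothelial markers (x axes) in the 23 libraries, coloured by group, with PM replicate 5 named. The library had the lowest sum, 3777 RPM, and the lowest Vwf, Slc6a2 and Icam2, whereas its Ackr1 was above all other saline libraries and its Icam1 was within their range.

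The endothelial lists set the members in context. In bulk tissue, fewer endothelial cells and less RNA per cell cannot be told apart. All lists were compiled by hand with earlier results of these data known, and some genes stand in more than 1 list. Of the 12 other venous genes, 2 were called higher and 6 lower in Sham offspring (median -0.85) and 1 and 7 in PM offspring (median -0.81), with shares called in Sham close to the 20.6% and 47.5% of all genes, and with Hdac9 highest (1.88 in Sham and 1.49 in PM offspring) and Flrt3 lowest (-2.06 and -2.01). Ephb4, a receptor that defines veins, had log2 fold changes of -0.05 and 0.08, and Nr2f2, the transcription factor of venous identity, -0.42 (not called) and -0.58 (limma adjusted p = 0.0154). Both were named after their values were seen. Of the 14 pan-endothelial markers, 1 was called higher and 9 lower in each cohort (median -0.98 and -0.89). Pecam1 had -0.03 and 0.06, whereas Cdh5, the cadherin of endothelial junctions, fell by 1.49 and 1.46, Ptprb was lowest (-2.66 and -2.47) and Cldn5 highest (0.44 and 0.49, not called). Of the 10 capillary markers 2 were called higher and 7 lower in each cohort (median -1.41 and -1.44), from Car4 (1.00 and 1.18) to Ednrb (-2.15 and -1.67). The arterial list had 1 of 7 higher and 4 of 7 lower in each cohort, from Mgp (1.65 and 1.24) to Sox17 (-1.39 and -1.25). The lymphatic list had 1 of 5 higher in each cohort and 4 and 3 of 5 lower, from Reln (2.11 and 1.85) to Lyve1 (-2.79 and -2.44). The medians of these lists were -0.58 and -0.67 (arterial) and -1.48 and -1.17 (lymphatic), beside 0.09 and -0.29 for the members. Relative to the pan-endothelial markers the median of the other venous genes was 0.04 in Sham and -0.04 in PM offspring, and Cldn5 turned negative after adjustment for length and GC content (-0.33 and -0.34).

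On the leukocyte side, the list of integrins, selectin ligands and the enzymes that make their sugars had 7 of 16 tested genes called higher in each cohort, and 3 lower in Sham and 5 lower in PM offspring. For this and the next 2 lists, the shares over all genes tested were 20.6% higher and 47.5% lower in Sham and 20.1% and 45.2% in PM offspring. Selplg, the scaffold that P-selectin grips, rose by 1.55 in Sham and 1.18 in PM offspring, and Itga4, the alpha4 partner of Vcam1, by 1.27 and 0.76. The LFA-1 chain Itgal, partner of Icam1 and Icam2, rose by 0.95 (limma adjusted p = 2.96e-04) and 0.51 (limma adjusted p = 0.0185), whereas its other chain Itgb2 had -0.20 and -0.54 (limma adjusted p = 0.624 and 0.185). Itgax was highest (2.99 and 2.67) and Fut4, a fucosyltransferase for selectin ligands, lowest (-1.92 and -1.60). Among 15 tested genes of adhesion and diapedesis, 5 were higher and 5 lower in Sham and 3 and 5 in PM offspring, from Emcn (1.13 and 0.85) to the junction gene Jam2 (-2.04 and -1.78). The cytokine and NF-kB list had 8 higher and 7 lower of 20 in each cohort. Il13 and Il4, cytokines of AAD that raise Vcam1 in endothelial cells, rose by 1.73 and 0.99 in Sham and by 1.14 and 0.69 in PM offspring on the log2(RPM + 0.5) scale. Tnf (0.50 and 0.11) and Il1b (0.14 and -0.73) did not pass the test, Ltb was highest (2.24 and 1.54) and Il1a lowest (-2.33 and -2.33).

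Markers of other cell types that make the members moved as well, and their part in the members' values was not tested. The 7 alveolar type 1 markers summed to 5058 to 6953 RPM in Sham and 3526 to 4824 RPM in Sham-OVA, and to 5916 to 6838 RPM in PM and 4189 to 4958 RPM in PM-OVA offspring, without overlap, the order that Icam1 showed. The list was itself split, with Ager at 0.53 in Sham and 0.40 in PM offspring (-0.11 and -0.29 after adjustment for length and GC content) and Clic5 at -2.83 and -2.78. The 8 interstitial macrophage markers rose from sums of 257 to 422 RPM in Sham to 1803 to 2736 RPM in Sham-OVA and from 358 to 537 RPM in PM to 1688 to 2282 RPM in PM-OVA offspring, led by C1qa (3.91 and 3.36), with Csf1r at 0.28 and 0.09, while Vcam1 was not called. The 8 platelet markers summed to 28.2 to 72.1 RPM in Sham and 55.0 to 85.9 RPM in Sham-OVA, and to 25.4 to 122 RPM in PM and 47.3 to 73.2 RPM in PM-OVA offspring. Pf4 was highest (2.02 and 0.98), Ppbp lowest (-2.02 and -1.92) and Itga2b 0.91 and 0.65, and Selp was not called. The 7 erythroid markers summed to 577 to 2176 RPM in Sham and 1195 to 4849 RPM in Sham-OVA, and to 551 to 1348 RPM in PM and 1281 to 2914 RPM in PM-OVA offspring, with Hbb-bt at 1.57 and 1.98. Sham-OVA replicate 3 had the highest erythroid sum, 4849 RPM, and the lowest Ackr1 of its group, from 1 read. That library was the lowest of its group for 64.4% of all genes tested, so its low Ackr1 does not bear on the source of the gene.

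The remaining lists were measured to see what else the pieces of lung held. Of the 6 nerve markers 2 could be tested, Ddc (-0.26 in Sham and -0.19 in PM offspring) and Slc18a2 (-0.28 and -0.72), and their sums stayed at 0.621 to 9.88 RPM in all libraries. The 7 neuroendocrine markers summed to 6.49 to 14.5 RPM, with Chga at 0.58 and 0.45 and Chgb at -1.02 and -0.40. Cardiac muscle sheathes the pulmonary veins in mice, and of its 8 markers 3 were called lower in each cohort, Myh6 by 5.27 and 4.66, with Tnni3 highest (0.04 and 0.67). Over all genes tested 47.5% were called lower in Sham and 45.2% in PM offspring, so 3 of 8 was not above those shares. Their sums were 96.4 to 248 RPM in Sham, 139 to 307 RPM in PM, 53.8 to 436 RPM in Sham-OVA and 101 to 176 RPM in PM-OVA offspring, the highest being Sham-OVA replicate 3. Vwf (126 RPM) and Slc6a2 (6.52 RPM) were the lowest of their group there, as were 64.4% of all genes tested. The mesenchymal and mesothelial list ran from Msln (0.95 and 0.90) to Lum (-2.34 and -3.11), the B cell list from Cd79b (2.18 and 1.62) to Pax5 (0.20 and -0.32) and the eosinophil list from Prg2 (3.94 and 3.68) to Siglecf (-1.01 and -1.33).

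**Figure D5:**
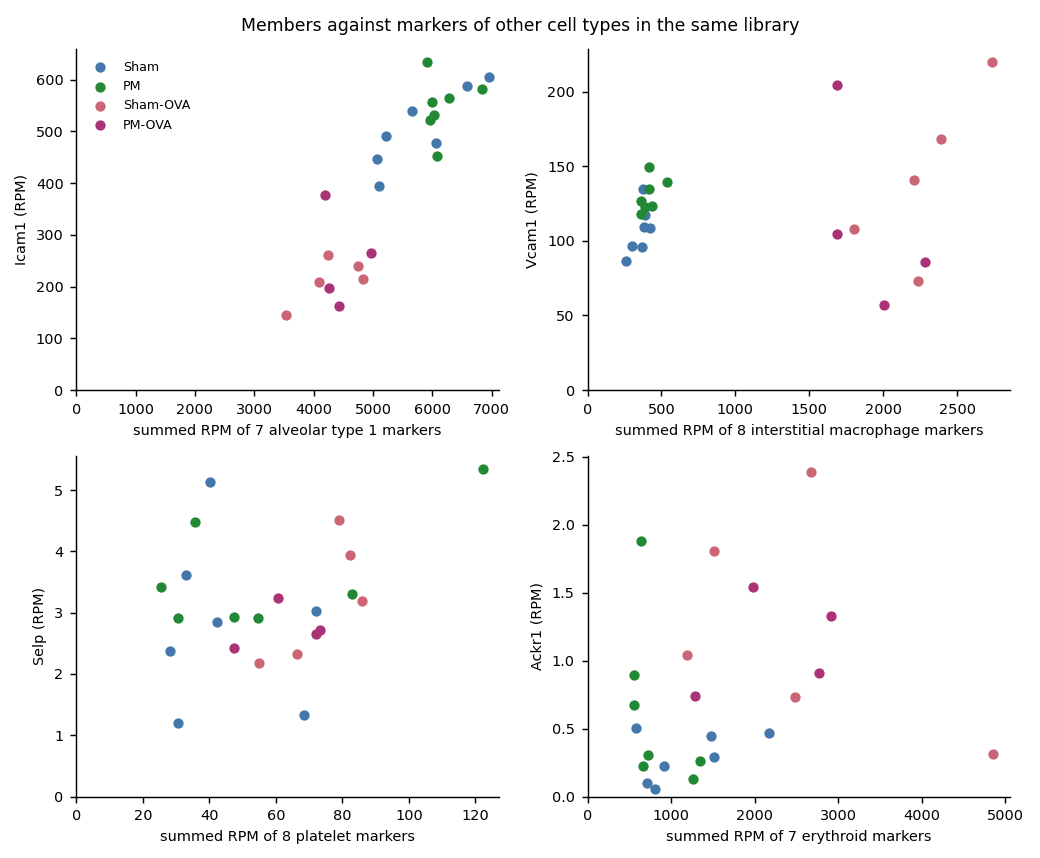
RPM of Icam1, Vcam1, Selp and Ackr1 (y axes) against the summed RPM of alveolar type 1, interstitial macrophage, platelet and erythroid markers (x axes) in the 23 libraries, coloured by group. Icam1 and the alveolar type 1 sum were both lower in every OVA library than in every saline library of its cohort, and the macrophage sum was higher in every OVA library while Vcam1 overlapped.

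Likeness between genes was described by the correlation of their deviations from the 4 group means over the 23 libraries, which share depth and composition, so the values are descriptions across libraries. Vwf was most like the endothelial genes Tie1 (r = 0.94), Cd36 (0.94) and Plvap (0.92), and without PM replicate 5 these were 0.89, 0.88 and 0.86 over 22 libraries. Slc6a2 was most like Rgs12, Palmd and Tox2 (0.92, 0.91 and 0.91), and 0.81, 0.74 and 0.78 without that library. Icam2 was most like Pllp, Hyal2 and Clstn1 (0.95, 0.92 and 0.91, or 0.87, 0.82 and 0.86). Among the members themselves, Vwf and Slc6a2 had r = 0.81 (0.62 without PM replicate 5) and Icam2 had 0.74 with Vwf and 0.79 with Slc6a2 (0.48 and 0.44). Icam1 and Vcam1 formed the other close pair, with r = 0.88 in both cases, and neither followed Slc6a2 (-0.01 and -0.02). Icam1 was most like Tgoln1, Zdhhc3 and Fzd1 (0.94, 0.94 and 0.93), and Vcam1 was most like Man1a, Tpi1 and Serbp1 (each 0.95), with values within 0.02 of these when PM replicate 5 was left out. Cpe was most like Ephb1, Gas6 and Sv2a (0.81, 0.79 and 0.78). Its r was -0.51 with Slc6a2 and -0.35 with Vwf (-0.42 and -0.18 without PM replicate 5), so over libraries it did not follow them. Selp was most like Plpp6, Mrps23 and Echs1 (0.85, 0.85 and 0.81) and Ackr1 most like Trem2, Wdr1 and Anxa6 (0.82, 0.77 and 0.76).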

How the data were processed

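RNA-Seq of lung from 7 Sham, 7 PM, 5 Sham-OVA and 4 PM-OVA offspring was analysed, with groups and replicate numbers from the sample labels. Single-end reads of 100 bases were trimmed (Trimmomatic), mapped to GRCm38 (Bowtie2) and quantified per gene in SeqMonk by the authors. The submitters' processing notes name bcl2fastq and mm10. The RPM values were deposited by the authors in a table named after RPKM. All values (100%) were whole multiples, within 0.05 reads, of the value of a single read in their library whatever the gene's length, so they were treated as RPM and reads were recovered.

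Values were tested as log2(RPM + 0.5) in 16795 genes that reached 0.5 RPM in 4 or more libraries, using limma 3.58.1 with a variance trend in R 4.3.3 and Benjamini-Hochberg adjustment over all genes tested, with only the compared groups in each fit and all 4 groups for the interaction. The fits were run on simulated data in which all libraries shared the same composition and only genes of moderate or high level changed. Outlying libraries and changes in low genes such as Ackr1 were not simulated. Alternatives were other pseudocounts and filters, median-of-ratios, quantile and pan-endothelial scaling, all groups in 1 fit, array weights, a replicate block, DESeq2 1.42.0 and edgeR 4.0.16 on recovered reads, and leaving out each library. Removal of the length and GC trend and leaving out several libraries together were chosen after seeing the data. The members and lists were chosen with earlier results of these data known. All 9 members were named, with the highest and lowest gene of each list after OVA in Sham offspring, defining cell type markers, and for each member the 3 most correlated genes with a mean of at least 1 RPM. Positions and exon lengths came from GENCODE for GRCm38, which matched 34224 of 35322 symbols. Sele was compared with exact permutation tests (scipy 1.17.1). Plots used Python 3.11.15 and matplotlib 3.10.9. Depth was 2298645 to 17393579 reads on genes, and low genes are known least precisely in the shallowest libraries. Some genes that this rule would name are not reported here.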

Additional observations from a re-analysis of the deposited data

Results flagged for a closer look

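Among 36 sets of values (the 8 tested genes and the mean of the pan-endothelial markers in each of the 4 groups), 5 had a library far from its group by Dixon's criterion, which chance alone gives in about 1 in 20 sets. Vwf stood apart in PM replicate 5 (70.2 RPM against 167 to 277 in the other PM libraries) and in Sham-OVA replicate 3 (126 RPM, with the next lowest at 223). PM replicate 5 also stood apart for Slc6a2 (0.646 RPM against 17.3 to 48.1), for Icam2 (70.7 RPM against 204 to 267) and for the mean of the pan-endothelial markers (7.82 on the log2 scale against 8.83 to 9.04), so 4 of the 5 values came from 1 library. The cause was not tested.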

How the results depend on the processing

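In Sham offspring 3 members were called after OVA. The count was 5 with quantile normalisation (Ackr1, Vcam1, Cpe and Selp higher, Icam1 lower), 7 relative to the pan-endothelial markers (all but Slc6a2) and 5 with array weights (Ackr1 and Vcam1 higher, Slc6a2, Icam1 and Icam2 lower, where 26.9% of all genes were higher and 49.4% lower). It was 2 to 4 when a library was left out (all genes 19% to 25.1% higher and 45.4% to 48.5% lower). It was 2 with all 4 groups in 1 fit (all genes 21.6% higher and 48.9% lower) and without a filter on low values (15.1% and 34.4%), where Slc6a2 was not called. With a filter on a mean of at least 1 RPM it was also 2 (21.4% and 48.7%), and Ackr1 was not tested. In PM offspring 1 member was called. The count was 3 with median-of-ratios scaling, with quantile normalisation and relative to the pan-endothelial markers (where Icam1 was not called), 2 with array weights (all genes 19.5% higher and 50.7% lower), DESeq2, edgeR and adjustment for length and GC content, and 5 without PM replicate 5 and PM-OVA replicate 1 (all genes 21.8% higher and 50.7% lower). It was 1 to 4 when a library was left out (all genes 18.5% to 21.5% higher and 38.6% to 50.5% lower). No member was called for maternal PM2.5 exposure under any alternative, and the interaction had 1 (Vcam1) with array weights (all genes 3.88% higher and 23.6% lower) and 1 without the doubted libraries (2.18% and 6.31%), against 0 genes in the analysis reported. Icam1 kept its direction after OVA in both cohorts under every alternative run. The causes were not tested.

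Of same-numbered replicates, 1 of 5 pairs in Sham, 0 of 4 in PM, 1 of 7 without OVA and 3 of 4 with OVA correlated above 0.1 in their deviations from the group means. The numbers are those of the sample titles, and most OVA libraries carry another number, or none, in their own library names. Pairs and the replicate block thus follow the titles alone, and no label states that equal numbers are related. With OVA the median r of the 4 pairs was 0.41 and the highest 0.62, and the reason was not tested. A replicate block left 3 members called in Sham offspring, where 17.3% of all genes were higher and 42.4% lower. In PM offspring it gave 2 (Icam1 and Slc6a2, where 13.6% of all genes were higher and 33.9% lower). The block turned the maternal difference of Ackr1 with OVA to -0.088.

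Other signs that turned belonged to values that did not pass the test in the analysis reported. After OVA in Sham offspring, Icam2 was 0.037 with median-of-ratios scaling, 0.56 relative to the pan-endothelial markers, 0.046 with DESeq2 and 0.12 with edgeR, and Cpe was -0.12 after adjustment for length and GC content. In PM offspring, median-of-ratios scaling gave 0.34 for Vwf, 0.0045 for Selp and 0.093 for Icam2, and quantile normalisation 0.21 for Vwf and 0.12 for Selp. The pan-endothelial yardstick gave 0.74 for Vwf, 0.33 for Slc6a2, 0.40 for Vcam1, 0.45 for Selp and 0.49 for Icam2. DESeq2 and edgeR gave 0.28 and 0.27 for Vwf, 0.10 and 0.10 for Vcam1 and 0.094 and 0.078 for Icam2. Length and GC adjustment gave 0.30 for Vwf, 0.045 for Slc6a2, 0.17 for Vcam1 and -0.19 for Cpe, and array weights -0.085 for Cpe. Without OVA, the maternal difference of Icam2 was 0.031 with array weights, 0.020 with DESeq2, 0.017 with edgeR and 0.0097 after length and GC adjustment, and without the doubted libraries Vwf was 0.18, Slc6a2 0.46 and Icam2 0.18. With OVA, Slc6a2 was -0.0032 on the pan-endothelial yardstick and -0.059 with array weights. Ackr1 was -0.018 with a pseudocount of 1, -0.10 with quantile normalisation, -0.13 on the pan-endothelial yardstick, -0.28 with array weights, -0.17 with DESeq2, -0.16 with edgeR and -0.12 without the doubted libraries. Icam1 was -0.11 with array weights and -0.17 without the doubted libraries, and Icam2 -0.10 on the pan-endothelial yardstick. The interaction of Slc6a2 was -0.059 with array weights and -0.25 without the doubted libraries, that of Icam1 -0.075 on the pan-endothelial yardstick, -0.40 with array weights and -0.26 without the doubted libraries, and that of Icam2 -0.069 and -0.050 on the pan-endothelial yardstick and without those libraries.

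Leaving out each library in turn gave -0.11 to 0.25 for Vwf after OVA in Sham, and -0.27 to 0.079 for Vwf and -0.049 to 0.16 for Cpe in PM offspring. The maternal difference without OVA ran from -0.27 to 0.15 for Vwf, -0.60 to 0.30 for Slc6a2, -0.083 to 0.055 for Cpe and -0.13 to 0.22 for Icam2. With OVA it ran from -0.21 to 0.45 for Slc6a2, -0.24 to 0.22 for Ackr1, -0.20 to 0.0083 for Cpe, -0.038 to 0.36 for Icam1 and -0.083 to 0.16 for Icam2. The interaction ran from -0.32 to 0.090 for Vwf, -0.16 to 0.84 for Slc6a2, -0.18 to 0.029 for Cpe, -0.17 to 0.24 for Icam1 and -0.18 to 0.18 for Icam2. Depth limited Sele and Ackr1 most, for which a single read in the shallowest library was worth 0.311 RPM.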
